A study of Mus musculus with 12 samples.

Results

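The genes described here are 8 members of the ATF4 arm of the integrated stress response: the transcription factors Atf4, Atf5 and Ddit3, the pseudokinase gene Trib3, and Asns, Chac1, Sesn2 and Ddit4. They were chosen by symbol, and each of the 8 matched 1 row of the deposited count table, which holds 13780 genes. All 8 passed the filter on low counts. RNA-seq was performed on 12 libraries of CD8+ T cells, the cytotoxic class of T cells, purified with magnetic beads from the spleens of young adult wild-type C57BL/6J mice. The 4 naïve libraries were from cells lysed straight after isolation, from 4 mice. For the 4 media libraries, cells spent 72 h in plain media with 10 U/ml of IL-2 and beads that carry anti-CD3 and anti-CD28, and for the 4 lactate libraries 40 mM sodium lactate was added to the same culture. The activated cells came from 5 mice, and by the reading of the donor tags used here, both media and lactate libraries were made from 3 of these. No sodium chloride control was sequenced, so an effect of lactate cannot be told apart from one of the added sodium or of osmolality. Time in culture likewise cannot be told apart from activation in the comparisons with naïve cells.

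In the integrated stress response, kinases that sense amino acid shortage, unfolded protein, viral RNA or heme shortage phosphorylate the translation factor eIF2α. Most translation then slows, while the mRNA of Atf4 is translated more, so that ATF4 protein can change without a change in its mRNA. ATF4 binds DNA with partner bZIP proteins at C/EBP-ATF response elements (CARE) and induces genes for amino acid supply, tRNA charging, redox balance and restraint of mTORC1. Several members also answer to other inputs: Ddit4 to HIF-1 and glucocorticoids, and Sesn2 to p53 and NRF2. T cells draw on the same genes when they grow after activation, because protein synthesis then raises the demand for amino acids.

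The DNA upstream of the members is shown because the CARE letters, which name the known ATF4 element, occur near the start of only some of them. All 8 members matched the RefSeq promoter table (GRCm38.p6), with 9 windows of 250 bases before to 50 after a start site. The CARE letters TGATGNAA were searched on both strands and were found in the windows of Asns, Chac1 and Trib3. They occur in 3.97% of all 32851 windows in the table, and 4.51% of the genes there have them in at least 1 window. The hypoxia response letters ACGTG, also searched on both strands, were found for Ddit4, Asns and Ddit3, against 19.6% of all windows and 21.8% of genes. The palindromic cAMP response letters TGACGTCA were found in no member, in 1.79% of all windows and in 2.03% of genes. These matches describe letters and do not show binding, and no match says only that the letters are not in the window. In the lines that follow, capitals mark the CARE letters and, in Ddit4 and the first run in Asns, the hypoxia response letters or their complements.
Asns, minus strand, chr6:7693225-7693459: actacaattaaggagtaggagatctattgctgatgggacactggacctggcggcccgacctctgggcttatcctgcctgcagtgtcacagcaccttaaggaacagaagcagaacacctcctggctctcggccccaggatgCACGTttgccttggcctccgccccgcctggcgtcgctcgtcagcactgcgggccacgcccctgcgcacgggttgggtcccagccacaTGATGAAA
Chac1, plus strand, chr2:119350992-119351241: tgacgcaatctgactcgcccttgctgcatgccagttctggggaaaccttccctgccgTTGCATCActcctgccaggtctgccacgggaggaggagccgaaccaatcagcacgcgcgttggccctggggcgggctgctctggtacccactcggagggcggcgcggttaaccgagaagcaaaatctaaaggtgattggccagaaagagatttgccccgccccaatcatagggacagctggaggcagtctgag
Trib3, minus strand, chr2:152344039-152344310: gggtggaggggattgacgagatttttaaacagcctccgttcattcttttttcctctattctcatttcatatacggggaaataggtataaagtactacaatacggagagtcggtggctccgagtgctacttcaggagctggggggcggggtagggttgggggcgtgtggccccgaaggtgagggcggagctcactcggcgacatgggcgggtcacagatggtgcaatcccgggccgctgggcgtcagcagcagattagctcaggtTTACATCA
Ddit4, minus strand, chr10:59951805-59952020: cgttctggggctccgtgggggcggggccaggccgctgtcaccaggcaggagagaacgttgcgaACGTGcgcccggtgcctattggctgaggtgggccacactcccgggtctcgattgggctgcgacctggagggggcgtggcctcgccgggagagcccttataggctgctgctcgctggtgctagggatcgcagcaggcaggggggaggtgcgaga
Counted from the RefSeq start site, the CARE letters lay at -23 to -16 in Asns, as TGATGAAA in the gene's own direction. In Chac1 they lay at -193 to -186, read on the opposite strand as TTGCATCA. In Trib3 they lay at 15 to 22 past the start, again on the opposite strand, as TTACATCA.

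Library totals were 16439750 to 18601223 counts in naïve, 15842423 to 20922872 in media and 14726904 to 21478137 in lactate libraries. Naïve replicate 4 stood apart: its chi-square per degree of freedom against the other naïve libraries was 124 to 138, and between those others it was 24.6 to 45.0. Its 5 markers of CD8+ T cells summed to 1579 CPM (counts relative to the library total, scaled by TMM), and the other naïve libraries held 2635 to 3582. Media libraries held 2738 to 3462 CPM of these markers and lactate libraries 2049 to 2609. The markers did not move together: Cd3e held 599 to 801 CPM in media and 324 to 400 in lactate libraries. Cd3d and Cd3g were likewise lower in lactate without overlap. Cd8a overlapped, at 821 to 1068 CPM in media and 766 to 931 in lactate, and Cd8b1 ran the other way, from 369 to 479 in media to 443 to 583 in lactate. Markers of other cells separated naïve from activated cells. The 4 B cell markers summed to 392 to 954 CPM in naïve, 8.14 to 14.7 in media and 5.23 to 7.44 in lactate libraries. The 7 myeloid markers summed to 550 to 1669, 11.9 to 18.7 and 5.18 to 10.6 CPM in the same order, and S100a8 and S100a9 were at 0 in all activated libraries. The 4 measured red cell markers held 84.1 to 3369 CPM in naïve libraries and at most 1.90 CPM in any activated one. The 3 CD4+ T cell markers summed to 76.0 to 89.4 CPM in lactate libraries, above the 44.6 to 55.8 of media and the 26.1 to 55.3 of naïve ones. That sum was nearly all Zbtb7b, at 74.3 to 88.4 CPM in lactate, and Cd4 itself held at most 0.99 CPM in any activated library. In bulk RNA, a change in the make-up of the cells and a change per cell cannot be told apart. The part of B, myeloid and red cells in the results with naïve cells was not tested. Nor was that of Zbtb7b or of the lower sum of CD8+ T cell markers in the results with lactate. By the numbers in their labels, libraries form a low series (3 naïve, 3 media and 2 lactate libraries) and a high series (1, 1 and 2). The labels do not say whether the series were sequenced or processed apart. Differences within the high series rest on 1 media library, and those within mice reuse libraries of both series.

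Of the 8 members, 7 rose on activation in media, 6 rose in lactate against naïve cells, and 1, Sesn2, rose with lactate against media. None fell in any of the 3 comparisons. A call here is an adjusted p of at most 0.01 in edgeR's quasi-likelihood test with Benjamini-Hochberg adjustment over 13767 tested genes. The fit for these calls held no term for the mouse. In media against naïve, 28.5% of all tested genes were called higher and 29.0% lower. In lactate against naïve these shares were 33.0% and 32.0%. In lactate against media, 13.9% of tested genes were higher and 11.1% lower, so 1 of 8 members called higher is close to the background. The ranges of the lactate and media libraries did not overlap for 3 members, with lactate above media for Atf4 and Sesn2 and below for Ddit3. Among all tested genes, 23.2% lay above without overlap and 21.5% below. The median log2 fold change of the 8 members was 1.74 in media against naïve and 1.75 in lactate against naïve, beside -0.03 and 0.01 over all tested genes. In lactate against media it was 0.28, beside -0.0016 over all tested genes. Both activated groups were compared with the same naïve libraries, so the first 2 comparisons share their controls. Counts of called members ran from 6 to 8 in media against naïve and from 6 to 7 in lactate against naïve over all alternatives tried.

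**Figure D1:**
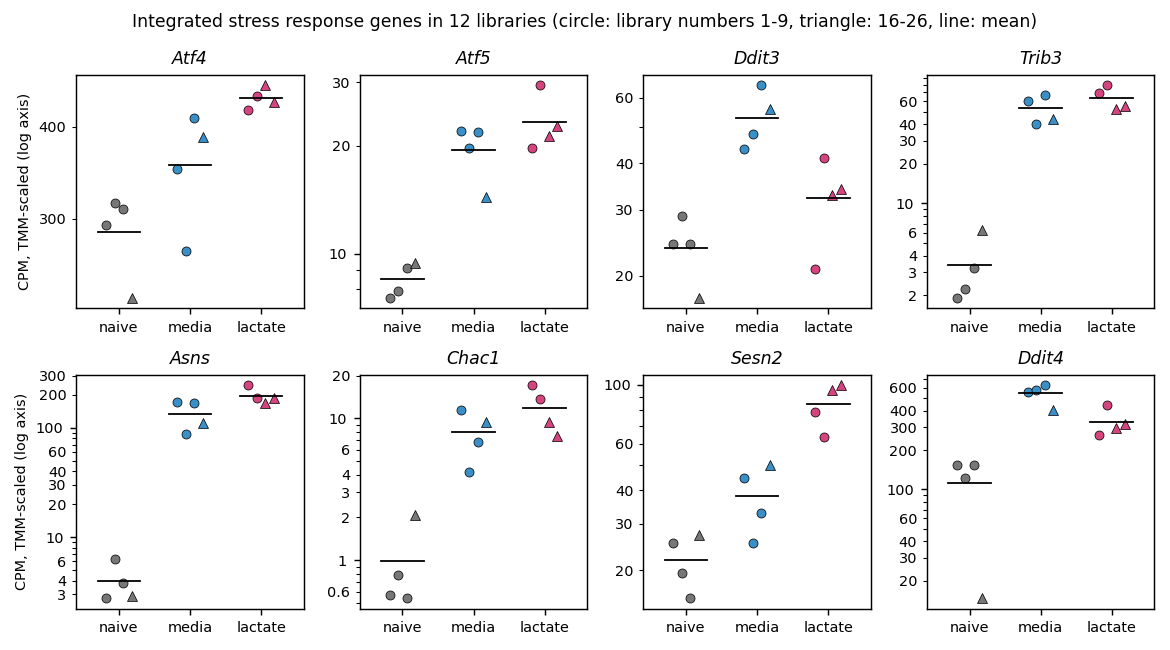
Each panel plots 1 gene, with scaled CPM on a log axis for the 4 libraries of each group, circles for the low and triangles for the high series of library numbers, and a line at the mean. Asns, Trib3 and Chac1 separate naïve from activated cells most widely. Lactate lies above media without overlap for Sesn2 and Atf4 and below it for Ddit3. The Ddit4 value of naïve replicate 4 (14.7 CPM) lies far below its group.

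Levels between genes are compared per length, as TPM, in which counts are divided by gene length and then by the library's sum. In naïve cells Atf4 was the most abundant member at 416 ± 41.4 TPM (SD, n = 4), and Chac1 the least at 2.09 ± 1.63. Neighbouring genes whose library ranges overlapped in naïve cells were Ddit4 with Ddit3, Sesn2 with Atf5, and the run of Trib3, Asns and Chac1. In media Ddit4 came first at 1078 ± 216 TPM, then Atf4 at 522 ± 86.9 and Asns at 171 ± 57.5, whose range overlapped that of Ddit3, as Ddit3 did that of Trib3. Asns thus moved from the seventh to the third place, and Atf5, at 34.0 ± 7.07 TPM in media, overlapped both of its neighbours in the order, Sesn2 and Chac1. In lactate the ranges of Ddit4, at 591 ± 148 TPM, and Atf4, at 585 ± 19.5, overlapped. Below Asns, at 227 ± 47.3 TPM in lactate, each gene overlapped the next one, in the order Trib3, Sesn2, Ddit3, Atf5 and Chac1.

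Atf4 (chr15:80255184-80257541, plus strand, GRCm38) encodes the transcription factor that gives the pathway its name. Its 4 naïve libraries held 294, 315, 309 and 235 CPM, its media libraries 351, 272, 411 and 387, and its lactate libraries 422, 440, 455 and 432, in the order of the replicates. Every lactate library lay above every media and naïve library, while media replicate 2 lay within the naïve range. Atf4 mRNA rose in lactate against naïve by a log2 fold change of 0.60 ± 0.13 (SE), with an adjusted p of 0.00104 in edgeR. The log2 fold change was 0.30 ± 0.13 both in media against naïve (edgeR adjusted p = 0.0555) and in lactate against media (edgeR adjusted p = 0.0842), and neither passed. The exact permutation test of lactate against media gave p = 0.0286, two-sided, the smallest that 4 against 4 libraries allow. Without media replicate 2, media against naïve passed, at 0.41 and an adjusted p of 0.00588. In the low series the lactate difference was 0.34 on the log2 scale and in the high series 0.19. Within the 3 mice with both libraries it was 0.10 to 0.27.

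Atf5 (chr7:44812256-44816658, minus strand), a relative of ATF4 whose mRNA is likewise translated under stress, rose on activation with and without lactate. It held 7.55, 7.87, 9.16 and 9.47 CPM in naïve, 22.0, 19.6, 21.8 and 14.4 in media, and 19.7, 29.5, 21.2 and 22.7 in lactate libraries. Naïve libraries lay below all activated ones, and the activated groups overlapped. The log2 fold change was 1.19 ± 0.17 in media against naïve (edgeR adjusted p = 5.25e-05) and 1.45 ± 0.17 in lactate against naïve (adjusted p = 7.81e-06). Lactate against media gave 0.26 ± 0.17 (adjusted p = 0.25), with 2 of 3 mice higher. Of its exon bases, 4.11% overlap Nup62 and Il4i1 on the other strand, and whether counting used strand is not given in the sources used here.

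Ddit3 (chr10:127290774-127296288, plus strand) encodes CHOP, a bZIP factor induced by ATF4 and tied to cell death under lasting stress. The naïve libraries held 24.2, 29.0, 24.4 and 17.4 CPM, the media libraries 43.9, 48.0, 64.9 and 55.9, and the lactate libraries 20.9, 41.3, 32.9 and 34.1. All media libraries lay above all lactate libraries, and the lactate and naïve ranges overlapped. Ddit3 rose in media against naïve by 1.16 ± 0.21 on the log2 scale (edgeR adjusted p = 0.000318). In lactate against naïve the value was 0.44 ± 0.21 (adjusted p = 0.0708). The log2 fold change of lactate against media was -0.72 ± 0.21, and its edgeR adjusted p of 0.0158 missed the threshold. The exact permutation p was 0.0286, again the smallest possible. Within mice the difference was negative in 3 of 3, from -1.07 to -0.65, and the series of library numbers gave -0.81 (low) and -0.74 (high). In 21 of 26 alternatives it was still missed, among them the donor block in all 12 libraries (-0.81, edgeR adjusted p = 0.0225). The call was made without naïve replicate 4 (adjusted p = 0.00729), without lactate replicate 2 (adjusted p = 0.00929) and with DESeq2 (adjusted p = 0.00244). It was also made at a threshold of 0.05. The donor block in the activated libraries alone, chosen after seeing the data, made it as well (-0.80, edgeR adjusted p = 0.00122). Of its exon bases, 3.97% overlap Mars on the other strand, a gene that rose with lactate, and 6.13% overlap a second annotated Ddit3 gene on the same strand that has no row of its own in the table.

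Trib3 (chr2:152337422-152344032, minus strand) encodes a pseudokinase that ATF4 and CHOP induce and that binds both ATF4 and the kinase AKT. The naïve libraries held 1.92, 2.22, 3.23 and 6.27 CPM, the media libraries 60.0, 40.4, 67.3 and 44.1, and the lactate libraries 68.7, 79.3, 52.6 and 54.7. The highest naïve library, replicate 4, was far below the lowest activated one, and the activated groups overlapped. Trib3 rose 15.5-fold in media (log2 fold change 3.95 ± 0.34, edgeR adjusted p = 5.85e-07) and 18.6-fold in lactate (4.22 ± 0.34, adjusted p = 2.58e-07), each against naïve. Lactate against media gave 0.27 ± 0.29 (adjusted p = 0.490), and within mice 0.19 to 0.31, positive in 3 of 3.

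Asns (chr6:7675169-7693254, minus strand) encodes asparagine synthetase, a classical ATF4 target, and showed the widest rise of the 8 on activation. It held 2.76, 6.31, 3.77 and 2.91 CPM in naïve, 173, 87.0, 169 and 110 in media, and 243, 187, 168 and 185 in lactate libraries. No naïve library came near an activated one, and media replicates 1 and 3 reached the lower lactate values. The rise was 34.3-fold in media (log2 fold change 5.10 ± 0.31, edgeR adjusted p = 3.81e-08) and 49.9-fold in lactate (5.64 ± 0.32, adjusted p = 1.59e-08). Lactate against media gave 0.54 ± 0.25 (adjusted p = 0.108, exact permutation p = 0.0857). The 3 within-mouse differences were 0.15, 0.50 and 0.75, and the low and high series gave 0.65 and 0.68.

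Chac1 (chr2:119351229-119354381, plus strand) encodes an enzyme that breaks down glutathione and is one of the targets most specific to ATF4 signalling. Naïve cells held 0.564, 0.781, 0.539 and 2.07 CPM, from 10, 13, 10 and 37 counts, so counting error is large there. Media libraries held 11.4, 4.20, 6.80 and 9.40 CPM and lactate libraries 17.1, 13.6, 9.41 and 7.56. All activated libraries lay above naïve cells, and lactate overlapped media. Chac1 rose in media (log2 fold change 3.00 ± 0.47, edgeR adjusted p = 0.000101) and in lactate (3.58 ± 0.48, adjusted p = 1.95e-05) against naïve. Without naïve replicate 4 these values were 3.65 and 4.23. Lactate against media gave 0.58 ± 0.41 (adjusted p = 0.284). Its sign differed between the series, at 1.13 in the low and -0.15 in the high one, which holds 1 media library.

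Sesn2 (chr4:132492032-132510501, minus strand) encodes Sestrin 2, a leucine sensor that restrains mTORC1, and was the member called with lactate. It held 25.4, 19.6, 15.7 and 27.1 CPM in naïve, 44.5, 25.4, 32.9 and 49.7 in media, and 78.8, 63.4, 95.4 and 99.3 in lactate libraries. Every lactate library exceeded every media library, while media replicate 2 lay inside the naïve range. Sesn2 was 2.21-fold higher in lactate than in media (log2 fold change 1.14 ± 0.23, edgeR adjusted p = 0.00204, exact permutation p = 0.0286). The difference was 1.08 in the low and 0.97 in the high series, and 0.82 to 1.00 in the 3 mice with both libraries. Over the alternatives the estimate stayed between 0.91 and 1.29. With the donor as a block in the fit of all 12 libraries it was 0.92 with an edgeR adjusted p of 0.0172, which misses the threshold. With the block in the activated libraries alone, chosen after seeing the data, it was 0.93 with an adjusted p of 0.000438. Both blocked estimates rest on the 3 mice with both libraries. Sesn2 also rose in media against naïve, by 0.80 ± 0.23 (edgeR adjusted p = 0.00827), and in lactate against naïve, by 1.94 ± 0.24 (adjusted p = 8.98e-06). The media call was lost in 13 of 23 alternatives, among them leaving out naïve replicate 1, 2 or 3, media replicate 1, 3 or 4, or lactate replicate 1, 3 or 4, with edgeR adjusted p of 0.0107 to 0.0451. The relatives of Sesn2 did not share its direction: Sesn3 fell with lactate (-1.21, adjusted p = 6.36e-05), and Sesn1 was at -0.40 (adjusted p = 0.0252).

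Ddit4 (chr10:59949669-59951834, minus strand) encodes REDD1, another restraint on mTORC1. The naïve libraries held 154, 123, 154 and 14.7 CPM, the media libraries 561, 582, 625 and 406, and the lactate libraries 262, 439, 295 and 317. Naïve replicate 4 lay far below its group, and lactate replicate 2 lay above the lowest media library. Ddit4 rose in media against naïve by 2.29 ± 0.51 on the log2 scale (edgeR adjusted p = 0.00145). In lactate against naïve the value was 1.56 ± 0.50 (adjusted p = 0.0124), which did not pass although the groups did not overlap. Without naïve replicate 4 it was 1.18 and passed (adjusted p = 0.000112). Lactate against media gave -0.73 ± 0.49 (edgeR adjusted p = 0.259, exact permutation p = 0.0571), and the difference was -1.10 to -0.36 in the 3 mice, negative in each. It was -0.80 in the low and -0.41 in the high series. The call of this comparison changed with the naïve libraries in the fit: without naïve replicate 4 the value was -0.73 with an adjusted p of 0.00413, and in a fit of media and lactate alone -0.72 with an adjusted p of 0.00617. In 23 of 26 alternatives it was not called, among them the donor block in all 12 libraries (edgeR adjusted p = 0.545). The donor block in the activated libraries alone, chosen after seeing the data, made the call (-0.65, edgeR adjusted p = 0.00826).

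**Figure D2:**
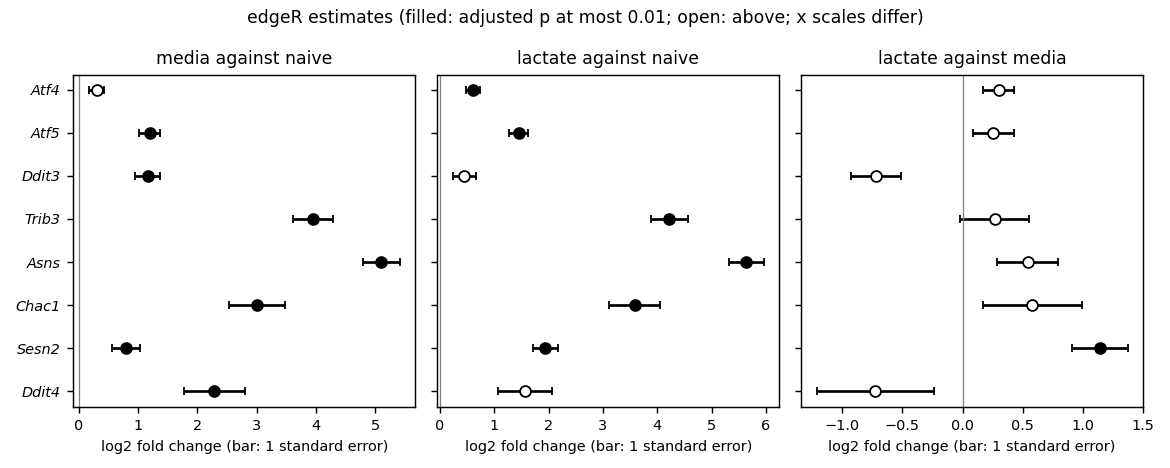
Log2 fold changes of the 8 genes in the 3 comparisons, with bars of 1 standard error, filled where the edgeR adjusted p is at most 0.01. All estimates against naïve cells are above 0, up to 5.64 for Asns, and with lactate against media Sesn2 (1.14) is filled and Ddit3 (-0.72) and Ddit4 (-0.73) lie below 0.

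**Figure D3:**
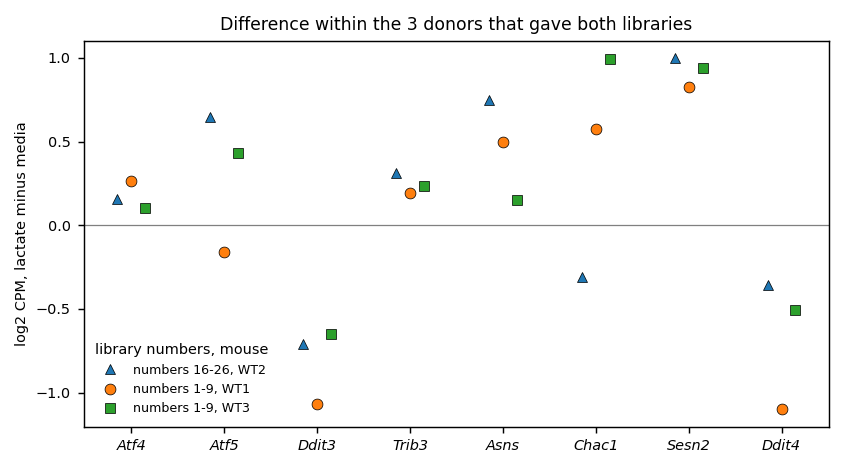
Difference in log2 CPM between the lactate and the media library of the same mouse, for the 3 mice that gave both, 1 symbol per mouse. Sesn2, Asns, Trib3 and Atf4 lie above 0 in each mouse, Ddit3 and Ddit4 lie below 0 in each, and Atf5 and Chac1 have both signs.

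Further genes of the pathway were grouped by role, and each list is described by its calls and its median log2 fold change, beside the shares of all tested genes given above. Upstream of ATF4, the list of eIF2α kinases, phosphatase subunits, eIF2α itself and the exchange factor eIF2B had 6 of 12 genes higher with lactate against media and 0 lower, with a median of 0.49. These 6 were eIF2α (Eif2s1, 0.89) and all 5 subunits of eIF2B, the factor that recycles eIF2 and that phosphorylated eIF2α inhibits. Eif2b3 had the largest value at 1.40 (17.0 ± 3.62 CPM in media, 44.9 ± 5.77 in lactate, edgeR adjusted p = 0.000133), and Eif2b1 was at 0.76. No kinase passed: the heme-regulated kinase gene Eif2ak1 was at 0.50, Eif2ak2 (PKR) at -0.57, Eif2ak3 (PERK) at -0.70 and Eif2ak4 (GCN2) at -0.01. On activation in media 4 of the 12 rose and 2 fell, beside 28.5% and 29.0% of all tested genes, with a median of 0.11. The risers with the largest values were Eif2ak4 (0.94) and Eif2s1 (0.70). Ppp1r15a, the stress-induced phosphatase subunit GADD34, fell by 3.67 on the log2 scale from 766 ± 371 CPM in naïve to 60.5 ± 53 in media, and Eif2ak1 fell by 0.90.

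Among 13 tested partners and other regulators, 0 were higher and 3 lower with lactate, and the median was 0.04. The 3 were Crebrf, a negative regulator within the unfolded protein response (-2.01), Sesn3 (-1.21) and the Trib3 relative Trib2 (-1.10). Atf3 at 1.502 (edgeR adjusted p = 0.0234) and Nupr1 at 1.31 (adjusted p = 0.0126), both stress-induced partners in ATF4 signalling, missed the threshold. In media against naïve 4 rose and 4 fell, near the 28.5% and 29.0% of all tested genes, with a median of -0.80. Eif4ebp1, the translation repressor 4E-BP1, rose by 3.38 and Nupr1 by 2.53, while Cebpb fell by 2.02 and Sesn1 by 1.25. Ddit4l, Fgf21 and Eda2r, which the lists also name, were not analysed here.

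The target list with the most calls was amino acid synthesis and one-carbon metabolism, in which 9 of 13 genes rose with lactate over media and 0 fell, with a median of 0.85. Among genes of serine synthesis, Psph rose by 1.38, Phgdh by 0.88 and Psat1 by 0.85, on the log2 scale. Shmt2, which turns serine into glycine in mitochondria, rose by 1.04. The largest values were in Cbs (1.92) and Cth (1.51), the enzymes that carry sulfur from homocysteine to cysteine, and Gpt2 (1.49), which makes alanine from pyruvate. Cth went from 17.6 ± 7.86 CPM in media to 50.3 ± 8.41 in lactate, and Gpt2 from 35.8 ± 13.3 to 100.4 ± 7.12. Cbs is scarce, with 2 to 15 counts in media and 24 to 35 in lactate libraries. All 13 genes also rose in media against naïve, with a median of 2.89, or 2.40 with Cbs at its bound. Cth rose by 6.25 from 0.219 ± 0.294 CPM, and Cbs, at 0 counts in all 4 naïve libraries, was at least 2.57-fold higher in media, taking 3 counts per library as the limit that a count of 0 allows.

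Of 10 amino acid transporters, 1 rose with lactate, near the 13.9% of all tested genes, and 0 fell, with a median of 0.60. This was Slc7a5, the carrier of large neutral amino acids such as leucine, at 309 ± 114 CPM in media and 732 ± 98.8 in lactate (1.24, edgeR adjusted p = 0.00226). Its partner chain Slc3a2 was at 0.56 (adjusted p = 0.0126), and the cystine carrier Slc7a11 at 1.99 (adjusted p = 0.105) with 2 to 8 counts in media. The count moved with many settings: it was 4 without naïve replicate 4 (3 higher, 1 lower) and 2 without naïve replicate 2, media replicate 1 or media replicate 3. It was 4 with DESeq2, 3 with limma voom, 2 with a term for the series and 2 in a fit of media and lactate alone. At an adjusted p of at most 0.05 it was 5, and also 5 with the donor block in the activated libraries alone. In media against naïve 4 rose and 2 fell, beside 28.5% and 29.0% of all tested genes, with a median of 0.65. Slc1a4, a carrier of alanine and serine, rose by 3.92 and Slc7a3 by 3.65, while Slc7a11 fell by 4.62 and Slc38a2 by 0.48. The Slc7a11 counts in naïve libraries were 69, 62, 20 and 352, of which replicate 4 held the most.

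Of 12 aminoacyl-tRNA synthetases, which charge tRNAs, 7 rose with lactate and 0 fell, with a median of 0.50. The largest values were in Tars (1.19), Wars (0.91) and Mars (0.77). The count was 4 without media replicate 2 or 4 and without lactate replicate 3 or 4. On activation 11 of the 12 rose, with a median of 1.45, led by Cars (2.11) and Iars (1.81). Among 6 tested secreted or mitochondrial targets, 3 rose with lactate and 0 fell, with a median of 0.79. These were the mitochondrial chaperones Hspd1 (1.14) and Hspa9 (0.92) and the protease subunit Clpp (0.98). In media against naïve Vegfa (5.04) and Lonp1 (2.30) rose, and Gdf15, a secreted stress factor, fell from 61 to 427 counts in naïve libraries to 0 to 2 counts in media. Gdf15 held at most 5 counts in any lactate library, so no difference between the activated groups was detectable at this depth.

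**Figure D4:**
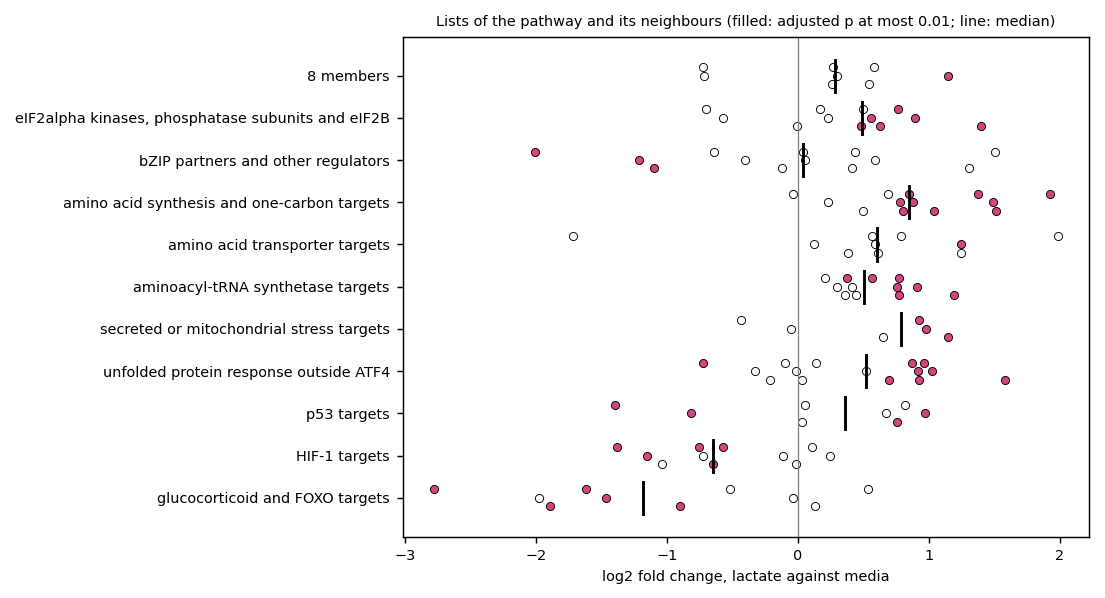
Log2 fold changes of lactate against media for the 8 genes and for 10 lists of the pathway and its neighbours, 1 point per gene, filled where the edgeR adjusted p is at most 0.01, with a line at each median. Medians run from 0.85 for amino acid synthesis to -1.18 for glucocorticoid and FOXO targets, and the 8 genes lie on both sides of 0.

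Lists of neighbouring pathways were set beside the members that share their inputs. Of 15 genes of the unfolded protein response outside ATF4, 7 rose with lactate and 1 fell, with a median of 0.52. Sdf2l1 (1.58), Xbp1 (1.02) and Creld2 (0.96) had the largest values and Dnajc3 (-0.73) fell. In media against naïve 2 of these 15 rose and 5 fell, beside 28.5% and 29.0% of all tested genes. The risers were Hsp90b1 (0.73) and Xbp1 (0.70), and among those that fell were Dnajb9 (-2.97) and Ern1 (-1.33). Of 8 p53 targets, an input that Sesn2 shares, 2 rose with lactate, Bax (0.97) and Zmat3 (0.75), and 2 fell, Trp53inp1 (-1.40) and Bbc3 (-0.81). Of all tested genes, 13.9% rose and 11.1% fell with lactate. Cdkn1a, the cell cycle inhibitor p21, was at 0.81 (edgeR adjusted p = 0.0451). Each of media replicates 2 and 4 and lactate replicates 1 and 3, when left out, brought the p53 count to 2 (1 higher, 1 lower). On activation 4 of the 8 rose and 0 fell, beside 28.5% and 29.0% of all tested genes, with Phlda3 at 4.61 and Cdkn1a at 3.52.

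Of 11 HIF-1 targets, an input that Ddit4 shares, 0 rose with lactate and 5 fell, with a median of -0.65. Ndrg1 fell by 1.39, Ankrd37 by 1.15 and Ero1l by 0.76. The count was 3 without media replicate 2, 3 or 4 or without lactate replicate 1 or 3, and 2 without lactate replicate 4. In the libraries of the 3 mice with both activated libraries, compared without a block by mouse, 0 were called by edgeR. With the donor block in all activated libraries 6 fell. In media against naïve 9 of the 11 rose and 0 fell, with Egln3 at 5.80 and Bnip3 at 5.66. Of 10 glucocorticoid and FOXO targets, 0 rose with lactate and 5 fell, with a median of -1.18. Pik3ip1 fell by 2.78 and Cdkn1b by 1.62. The list pools both inputs, and its genes differed with lactate. Tsc22d3 (-1.47) and Per1 (-0.90) also fell, while Klf9 was at -0.04 and Fkbp5 at 0.54 (edgeR adjusted p = 0.0150). The part of each input was not tested. On activation 2 of these rose, Klf9 (1.89) and Fkbp5 (1.49), and 5 fell, among them Klf2 (-4.07) and Tsc22d3 (-2.43). Of all tested genes, 28.5% rose and 29.0% fell in media against naïve.

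The donor block in the fit of all 12 libraries lowered the counts of calls in lactate against media for most lists: to 2 for the eIF2 list, 1 for partners, 2 for amino acid synthesis, 0 for transporters, 3 for synthetases, 3 for the unfolded protein response, 1 for p53 targets and 1 for HIF-1 targets. With the same block in the activated libraries alone, a setting chosen after seeing the data, they were 9 (7 higher, 2 lower), 4, 10, 5, 5, 9, 5 and 6. The cause of the difference between both fits was not tested.

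For each member, the tested genes with the most similar profile over the 12 libraries were found by the root mean square difference of centred log2 CPM. The likeness is a description over libraries that share 3 conditions. The gene nearest to Atf4 was Ptcd2 at 0.092, followed by 0610012G03Rik and Mrpl49. Atf5 was nearest to Fdx1 at 0.166, with Slirp and Cwc27 next. Ddit3 was nearest to Umad1 at 0.161, then Papss1 and Cacna1s. Trib3 was nearest to Cdkn1a at 0.301, then Slc1a4 and D630045J12Rik, and Asns to Serpine2 at 0.207, then Ccnb1 and Pycr1. Chac1 followed Fasl at 0.353, then Kpna2 and Eif4ebp1. Sesn2 was nearest to Zfp608 at 0.239, then Map2k3os and Mypop, and Ddit4 to Fbln1 at 0.268, then Ptprv and Smo. No member was among the nearest genes of another.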

How the data were processed

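RNA-seq of 12 libraries was analysed from the gene table that the authors deposited, which holds raw counts and a length for each gene. The authors prepared libraries with a stranded mRNA kit, aligned single-end reads to GRCm38 with STAR 2.7.5b, removed PCR duplicates and counted reads in Ensembl exons with featureCounts; the strand setting is not given in the sources used here.

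The labels gave the groups, the donor tags and the numbers of the libraries. The same donor tags recur in the low and the high library numbers and were read as different mice, which gives the 5 mice that the record states. All within-mouse values and donor blocks rest on this reading. Library totals lay between 14726904 and 21478137 counts. Genes with at least 1 CPM in 3 libraries were kept (13767, with 13 dropped). After TMM scaling, edgeR 4.0.16 (R 4.3.3) fitted 1 quasi-likelihood model with 3 group terms, with two-sided tests, Benjamini-Hochberg adjustment and a threshold of 0.01. For a standard error, the log2 fold change was divided by the root of its F statistic, log2 CPM used a prior count of 2, and TPM used the lengths of the table. Exact permutation tests ran over 70 arrangements. Differences within a series or mouse are of log2 CPM. Alternatives were DESeq2 1.42.0, limma 3.58.1 with voom, other scalings and filters, blocks and each library left out.

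Whether media and lactate libraries are paired was checked by the correlation of their deviations from the group means: it was 0.374, 0.211 and 0.553 for libraries of the same mouse and 0.374, 0.297, 0.0038 and 0.553 for those sharing a title number. Media replicate 4 and lactate replicate 3, which share neither but are both in the high series, gave 0.371, so the correlations do not set libraries of 1 mouse apart. The main fit held no block, so its p-values and the exact permutation tests treat libraries of the same mouse as independent. In the alternatives with a donor block, the mouse was the block because the labels tie these libraries to the same animal. In the activated libraries alone, this block leaves few libraries beyond the fitted terms, so its p-values lean on spread shared over genes. No library was a duplicate of another (smallest chi-square per degree of freedom 5.79). Whether replicates of different mice were processed apart is not stated. The p-values of the main fit set each difference against the spread between these libraries, shared over all 3 groups.

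The 8 members, the lists and the tests were chosen with earlier results of these data known. All members were named; in each list, the called genes with the largest changes were named, up to 3 in each direction with lactate against media and 2 in media against naïve. A gene that this rule selects is not reported here. Any other list gene in the text was picked with its value in view. For each member the 3 genes nearest in profile were named. Exon overlaps were computed from GENCODE M21 (GRCm38).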

Additional observations from a re-analysis of the deposited data

Results flagged for a closer look

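In the 4 naïve libraries, Chac1 in replicate 4 lay apart from the others, at 2.07 CPM against 0.539 to 0.781 CPM, by Dixon's test for a single far value. This was the 1 such value among 24 groups of 4 tested over the 8 genes, and chance gives about 1 in 20 groups. The same library held 37 counts of Chac1 and had the lowest sum of CD8+ T cell markers, 1579 CPM.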

How the results depend on the processing

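For lactate against media, 3451 genes were called, and 5461 when the threshold was 0.05. The replicate block by donor in the fit of all 12 libraries gave 992, the block in the activated libraries alone, chosen after seeing the data, 3654. Leaving out 1 library gave 2252 (without media replicate 2) to 4845. Of the 8 members 1 was called: it was 2 at an adjusted p of at most 0.05, 2 with DESeq2, 2 with the compared groups alone, 0 with the donor block in all libraries (edgeR), 3 with the block in the activated libraries alone, and 1 to 3 leaving out 1 library, with 3 without naïve replicate 4 and 2 without lactate replicate 2. No member changed the sign of its estimate in any comparison under any alternative. In lactate against media, adjusted p over these ran from 3.68e-05 to 0.0172 for Sesn2, from 0.00122 to 0.0511 for Ddit3 and from 0.00413 to 0.545 for Ddit4. Other scalings put the median of all genes between -0.04 and -0.03. Ddit4 in lactate against naïve also passed with limma voom (1.99, adjusted p = 0.00731), a block by title number (1.79, 0.00837) and a term for the series of library numbers (2.03, 0.00239). The causes were not tested. Depth limits Chac1 in naïve cells, Cbs and Gdf15.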
